A study of Homo sapiens with 12 samples.

Results

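The untreated transcriptome of L-540, a Hodgkin lymphoma cell line, was described from the 3 control arrays of a bead-array series of 12 samples. A gene was counted as expressed when a probe for it had a detection score above 0.95 on all 3 control arrays, which held for 7412 of the 18852 genes with a named probe (39.3%). A further 2785 genes (14.8%) were detected on 1 or 2 arrays, and 8655 genes (45.9%) were detected on none, so they form the set against which the expressed genes are read. The 7412 expressed genes were then ranked by mean normalised intensity.

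The other 9 samples of the series are L-540 cells given 100 nM givinostat, 5 µM sorafenib or both, and they were not analysed here. The controls, lettered A, B and C, carry the treatment label CTRL, no drug concentration and the same exposure time of 24 hours as the drug samples; no vehicle is named in the labels. Cells of all groups were kept in RPMI medium with 20% fetal bovine serum and 2 mM glutamine, and they were seeded 24 hours before the exposure began. The labels do not say whether the lettered controls came from separate cultures, so the spread between them may be technical, and they represent 1 cell line in culture without the other cells of a tumour.

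In a Hodgkin tumour the malignant Hodgkin and Reed-Sternberg cells are a small minority among infiltrating immune cells. They usually descend from germinal centre B cells whose B cell programme has been shut down, while L-540 is a line with T cell features. Such cells are known for the activation marker CD30, for constant activity of the NF-kB and JAK-STAT pathways, and for the cytokines and surface ligands through which they engage their surroundings. CD30 belongs to the TNF receptor family and signals through TRAF proteins to NF-kB. Cytokine receptors signal through JAK kinases, which phosphorylate STAT factors, and these switch on SOCS and CISH genes that damp the signal.

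Levels are log2 intensities after background correction and quantile normalisation, and where 3 values follow a gene they belong to controls A, B and C in that order. The detection limit lay at 6.82, 6.63 and 6.95 on this scale, and the share of all probes detected was 26.8%, 30.6% and 24.96%. Over the expressed genes the level ranged from 6.85 to 16.06 with a median of 10.00, and the SD over the 3 arrays (n = 3) had a median of 0.188. That SD had a median of 0.296 in the 1853 dimmest expressed genes and of 0.125 in the 1853 brightest. Probes differ in how strongly they bind, so a rank states the brightness of a probe and does not order the amounts of different transcripts. Olfactory receptor genes, which blood cells are not known for, were rarely detected: 1 of 364 was detected on all 3 arrays, 41 on 1 or 2, and 322 on none. The taste receptors had 0 of 26 genes detected on all 3 arrays, the keratin-associated proteins 2 of 75 and the defensins 1 of 36. With 1 array left out, the olfactory receptors detected on both others numbered 2 without control A, 2 without control B and 4 without control C, and the keratin-associated proteins numbered 4 without control B.

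The 5 genes taken as markers of the line were detected on all 3 arrays. They were named together with the choice of these arrays, so their detection is no independent evidence of identity. All 5 are counted again in detected totals below, which are to that extent not independent either. TNFRSF8 and LTA count among the genes known from Hodgkin cells and in the TNF receptor and TNF ligand families. LTA also counts among NF-kB target genes, and STAT4 among T cell transcription factors and STAT factors. IL2RA counts among interleukin receptors and IL22 among cytokines. TNFRSF8, which encodes CD30, had 10.31, 9.76 and 10.08, close to the median of the expressed genes. IL2RA, the alpha chain of the interleukin-2 receptor (CD25), had 13.20, 13.05 and 13.03 and ranked 698 of 7412. Its second probe passed on no array, at 6.33, 6.11 and 5.68. STAT4, the transcription factor of interleukin-12 signalling, had 9.62, 9.85 and 10.08. IL22, a cytokine made by helper T cells and innate lymphoid cells that acts on epithelia, had 11.64, 10.87 and 10.75 on one probe and 10.22, 9.64 and 9.74 on its other probe. LTA, which encodes the TNF family ligand lymphotoxin alpha, had 11.88, 11.03 and 11.49. For IL22 both probes were highest on control A, and for LTA and TNFRSF8 the highest value was also that of control A.

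Among 28 genes known from Hodgkin cells, 19 were detected on all 3 arrays, 1 on 2 arrays and 8 on none. The brightest was LGALS1, which encodes the immune-dampening lectin galectin-1 (15.78, 15.80 and 15.85, rank 36). BATF3, an AP-1 family factor typical of anaplastic and Hodgkin lymphoma cells, had 15.37, 14.68 and 14.72. CD70, a TNF family ligand on activated lymphocytes, had 14.12, 14.17 and 14.42. ID2, an inhibitor of the E proteins that drive the B cell programme, had 14.18, 14.20 and 14.34. These 4 genes lay within the top 300 of the ranking.

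The actin-bundling protein FSCN1, used as a stain for Reed-Sternberg cells, had 13.93, 13.32 and 13.33, and the AP-1 subunit JUNB had 13.96, 13.23 and 13.22. CD86, a ligand of the T cell receptors CD28 and CTLA4, had 12.59, 13.08 and 12.998. The other detected members were MSC, another inhibitor of E proteins, LTA, EBI3, NOTCH1, CD83, TNFRSF8, FUT4, TRAF1, MAP3K14, CD200 and CD274. IRF4 reached 7.11 and 6.89 on controls A and B, where it was detected, and 6.46 on control C. Not detected on any array were CD80, CD40, the chemokines CCL17 and CCL22, IL13, PDCD1LG2, BCL2A1 and GATA2.

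**Figure D1:**
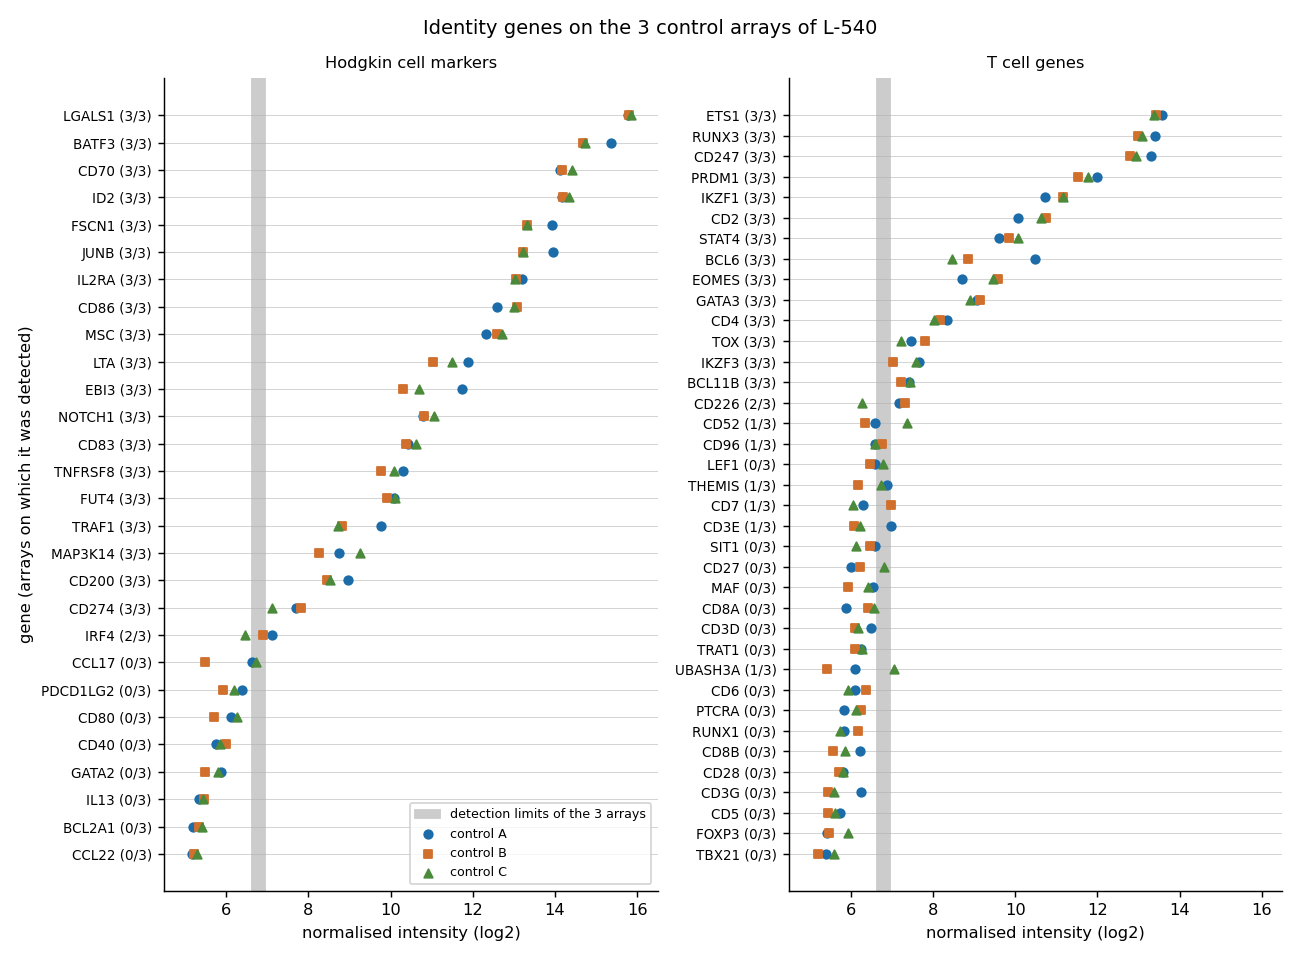
Log2 intensity of each Hodgkin cell marker (left) and each T cell gene (right) on the 3 control arrays of L-540; each symbol is 1 array, the grey band spans the detection limits of the arrays, and the bracket after a gene gives the arrays on which it was detected. Most Hodgkin markers lie to the right of the band, 19 of 28 on all 3 arrays, while CD3D, CD3G, CD5, CD6 and CD28 lie in it or to its left.

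T cell genes split by kind. Of 5 genes of the T cell receptor complex 1 was detected on all 3 arrays, the signalling chain CD247 (13.31, 12.79 and 12.94). CD3E passed on control A only (6.97, 6.07 and 6.21), and CD3D, CD3G and PTCRA passed on none. Of 16 T cell surface molecules 2 were detected on all 3 arrays: the adhesion molecule CD2 (10.07, 10.75 and 10.62) and the co-receptor CD4 (8.33, 8.17 and 8.03). CD5, CD6, CD8A, CD8B, CD27, CD28, SIT1 and TRAT1 were detected on none. In a bulk sample fewer cells with a transcript and less transcript per cell cannot be told apart, which holds for every level given here.

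T cell transcription factors gave 11 of 16 detected on all 3 arrays (68.8%). ETS1, a factor of lymphocyte development, had 13.56, 13.44 and 13.38, and RUNX3, which fixes the cytotoxic lineage, had 13.39, 12.98 and 13.08. PRDM1, which drives terminal differentiation of lymphocytes, had 11.99, 11.53 and 11.77. GATA3, the leading factor of type 2 helper T cells, had 9.08, 9.14 and 8.89, and EOMES, a factor of cytotoxic T and NK cells, had 8.71, 9.57 and 9.45. IKZF1, STAT4, BCL6, TOX, IKZF3 and BCL11B were the other detected members, while LEF1, RUNX1, TBX21, FOXP3 and MAF were detected on none. BCL6 differed among arrays more than most expressed genes, with 10.49, 8.86 and 8.47 and an SD of 1.07. Type 2 helper T cell genes were detected for 4 of 14 members (BATF, STAT6, IL4R and GATA3), without IL5, IL13, CCR4, CCR8 or PTGDR2.

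Cytotoxic and NK cell genes gave 6 detected members of 18 (33.3%), near the 39.3% of all genes. NKG7, a protein of cytotoxic granules, had 15.52, 15.23 and 15.43 and ranked 89. SRGN, the proteoglycan that packs granule contents, had 13.37, 13.34 and 13.63, and the pore-forming perforin gene PRF1 had 12.69, 12.34 and 12.02. GZMB, the granule protease granzyme B, had 11.40 on control A against 9.63 and 9.59 on controls B and C. TIA1 was also detected, and NCAM1 passed on 1 of its 4 probes, near the detection limit at 6.97, 7.09 and 7.08. GZMA, GZMK, GZMM, GNLY and KLRD1 were detected on none.

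Of 22 B cell genes 5 were detected on all 3 arrays (22.7%): the kinase BLK (9.83, 10.15 and 10.16), the tetraspanins CD37 and CD53, the factor EBF1 (8.02, 8.27 and 8.29) and the low-affinity IgE receptor FCER2. MS4A1 (CD20) and CD79A passed on 1 array each. PAX5, CD79B, CD22, BLNK, SPIB and POU2AF1 passed on none. Of 8 plasma cell genes XBP1, PRDM1 and MZB1 were detected (37.5%), near the 39.3% of all genes.

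Markers of other cell types were largely undetected. Of 20 myeloid genes 3 were detected, of which CSF1R, the receptor of macrophage colony-stimulating factor, had 11.57, 10.93 and 11.04. The integrin ITGAX had 10.15, 8.69 and 8.42, and S100A8 had 7.17, 7.09 and 8.003, while LYZ, SPI1, MPO and CEBPA were detected on none. Of 12 fibroblast and muscle genes ACTA2 alone was detected (12.48, 12.73 and 12.80). Of 12 endothelial genes ESAM alone was detected on all 3 arrays (10.56, 10.04 and 10.13), while 2 passed on both other arrays without control A and 2 without control B, and of 12 epithelial genes MUC1, KRT7 and KRT20 were. None of 12 erythroid and megakaryocyte genes was detected on all 3 arrays.

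**Figure D2:**
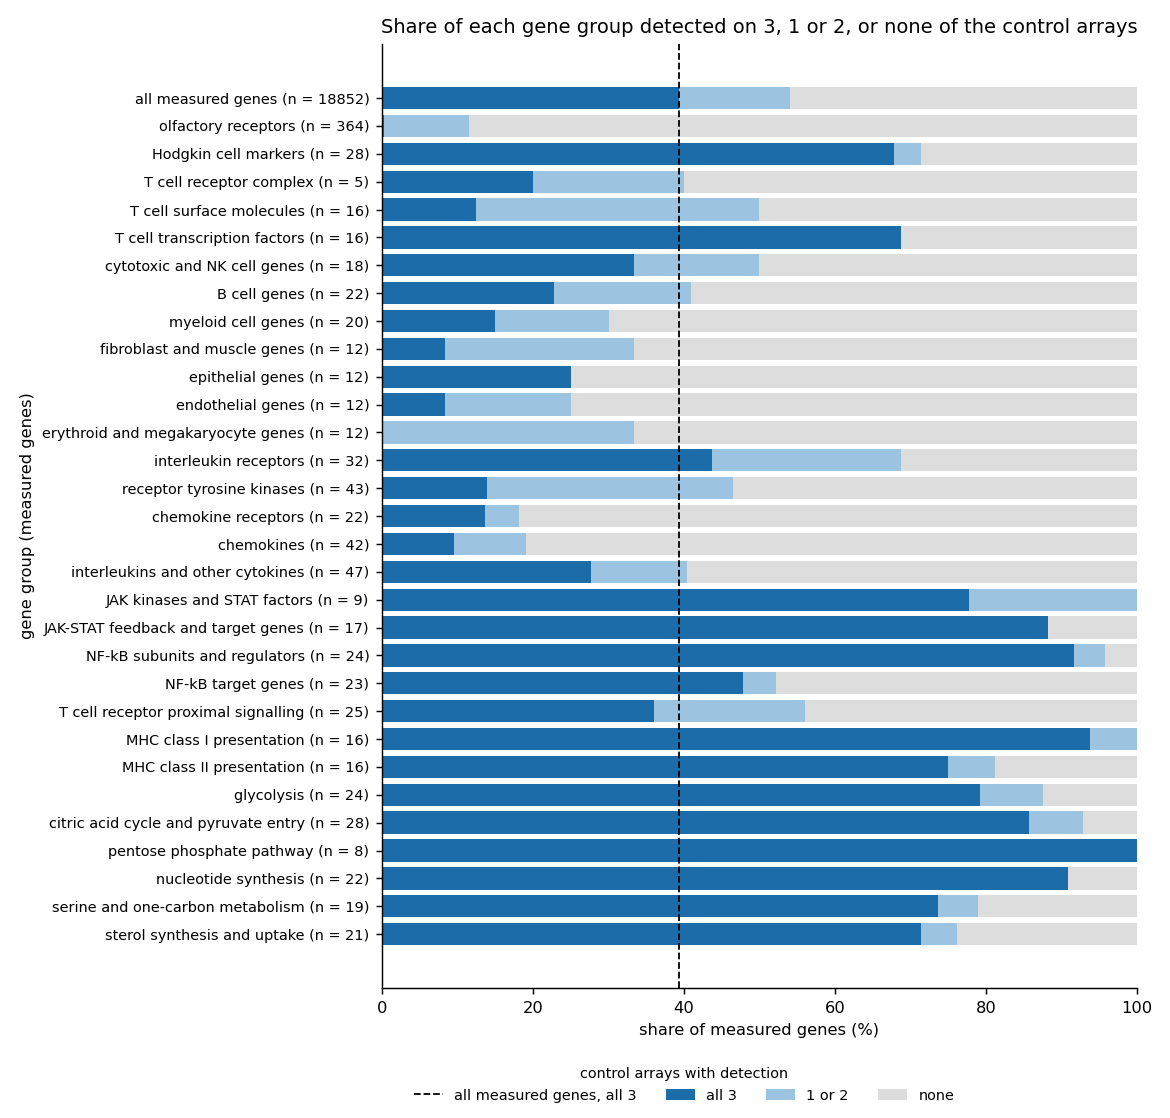
Share of the measured genes of each group that were detected on all 3 (dark blue), 1 or 2 (light blue) or none (grey) of the control arrays, in percent; the dashed line marks the 39.3% of all 18852 measured genes detected on all 3. The NF-kB, JAK-STAT, antigen presentation and metabolic groups drawn here reach past the line, while T cell receptor proximal signalling (36.0%), the groups for other cell types and the olfactory receptors stay short of it.

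Over all surface molecule lists 44 of 129 members were detected on all 3 arrays (34.1%), near the 39.3% of all genes. The detected receptors were spread unevenly over families. Interleukin receptors gave 14 of 32 (43.8%). The beta chain IL2RB, shared by the receptors of interleukins 2 and 15, had 13.92, 14.27 and 13.93. It stood beside IL2RA, described above, while the shared gamma chain IL2RG passed on control A only, with 7.10, 6.57 and 6.36. IL10RA had 12.59, 12.46 and 12.46, IL21R had 12.94, 12.19 and 12.23, and IL7R had 10.36, 11.09 and 11.18. The last of these was lowest on control A.

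The sequence upstream of the IL2RA start site is shown because this gene is the brightest of the 5 markers and its promoter is poor in CpG. It is chr10:6062368-6062617 of GRCh38.p14 on the minus strand, as listed by RefSeq, and the capitals mark a pair of overlapping matches to the NF-kB consensus.
IL2RA: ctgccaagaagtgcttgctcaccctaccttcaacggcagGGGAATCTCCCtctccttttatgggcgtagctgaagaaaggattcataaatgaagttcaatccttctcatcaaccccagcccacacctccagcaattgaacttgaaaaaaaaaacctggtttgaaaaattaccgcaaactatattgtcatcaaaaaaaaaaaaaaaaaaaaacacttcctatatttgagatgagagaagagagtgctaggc
The consensus was searched on both strands in windows of 300 bases that end 50 bases after the start site, and 10.5% of all 22114 such windows held it.

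IL27RA, IL12RB1, CSF2RA, IL4R, IL10RB, IL15RA, IL18R1, IL6ST and IL6R completed the detected interleukin receptors. The receptors detected on none included CSF2RB, IL12RB2, IL17RA, IL18RAP and IL22RA1, the chain that pairs with IL10RB to bind interleukin-22. Interferon and growth factor beta receptors gave 7 of 11, led in brightness by the interferon gamma receptor chain IFNGR2 (14.26, 13.77 and 13.70).

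Chemokine receptors gave 3 detected genes of 22, and all 3 were among the top 300 of the ranking. CCR7, which guides lymphocytes to lymph nodes, had 15.66, 15.49 and 15.57. CXCR4, the receptor for CXCL12, had 14.65, 14.36 and 14.49, and CCR6, the receptor for CCL20 on Th17 and other memory cells, had 14.71, 14.28 and 14.25. CCR4 and CCR8, CXCR3 and CXCR5 were detected on none. The ligand CCL20 was itself detected on none, as were CCL21 and CXCL12.

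TNF receptors gave 9 of 28 (32.1%), against 39.3% of all genes. Apart from TNFRSF8 these included TNFRSF14, the receptor for LIGHT (12.85, 12.65 and 12.55), and TNFRSF10B, a receptor for TRAIL (10.93, 10.16 and 10.02). TNFRSF9, the co-stimulatory receptor 4-1BB, had 11.61 on control A against 9.25 and 9.02 on controls B and C. Its SD of 1.43 was the largest of all 7412 expressed genes. TNFRSF4, which encodes OX40, had 9.68 on control A against 8.68 and 8.40 on controls B and C, the same order. TNFRSF10A, TNFRSF21, TNFRSF1B and FAS were also detected, while CD27, CD40, LTBR and TNFRSF18 were detected on none.

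Receptor tyrosine kinases were rarely detected, 6 of 43 (13.95%). Apart from CSF1R these were the Wnt co-receptors ROR2 (9.90, 9.74 and 9.69) and RYK, the insulin-like growth factor receptor IGF1R, TYRO3 and ERBB4. A further 14 passed on 1 or 2 arrays, and with control B left out, 10 genes passed on both other arrays. KIT, EGFR, MET, ALK, INSR and KDR were detected on none. Of 13 kinases that sorafenib is known to inhibit, CSF1R and the RAF kinase ARAF (11.02, 10.89 and 11.16) were detected on all 3 arrays. PDGFRA, FLT3, RET and DDR1 passed on 1 or 2 arrays, and KIT, KDR, FLT1, FLT4, PDGFRB, FGFR1 and DDR2 on none.

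Among 24 co-stimulatory and checkpoint molecules 10 were detected (41.7%), near the 39.3% of all genes. Apart from CD86, HAVCR2, which encodes the inhibitory receptor TIM-3, had 12.51, 11.98 and 11.84. The others were CD47, CD58, CD48, CD276, CD200, SLAMF1, CD55 and CD274, which encodes PD-L1. CD28, CTLA4, LAG3 and TIGIT were detected on none. LAIR1, an inhibitory collagen receptor of immune cells, had 15.93, 15.96 and 15.92 and was the only receptor gene among the 25 brightest genes. Its second probe was also detected on all 3 arrays. F2R, the thrombin receptor PAR1, followed at 15.73, 15.77 and 15.67.

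Adhesion molecules and integrins were detected in part, 7 of 19 (36.8%) and 7 of 27 (25.9%), against 39.3% of all genes. The tetraspanin CD81 had 14.29, 14.30 and 14.26, and ICAM2, a ligand of the leukocyte integrin LFA-1, had 13.30, 13.34 and 13.42. ITGB7, the beta chain of gut-homing integrins, had 13.32, 13.31 and 13.36, and its partners ITGA4 (8.88, 9.84 and 9.71) and ITGAE were also detected. ITGAL and ITGB2, which together form LFA-1, were detected on none, nor was ICAM1. PTPRC, the pan-leukocyte phosphatase CD45, passed on 1 array at most with any of its 4 probes, and CD44 likewise with its 3 probes.

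Cytokine genes were detected for 13 of 47 members (27.7%), against 39.3% of all genes. MIF, a cytokine also made by most growing cells, had 14.46, 14.10 and 14.11. IL18, an inducer of interferon gamma, had 12.70, 12.48 and 12.33. IL26, the neighbour of IL22 in the interleukin-10 family, had 10.87, 10.28 and 9.94. EBI3, the shared subunit of interleukins 27 and 35, had 11.75, 10.30 and 10.70. These 4 had their highest value on control A, as did IL22.

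IL1RN, the antagonist of interleukin-1, had 11.56 on control A against 10.21 and 10.20 on controls B and C. Oncostatin M (OSM) had 10.73, 10.16 and 9.99, and IL32 had 10.995, 9.71 and 10.14. IL10, VEGFA, FLT3LG and IL7 were the members highest on another array, with IL10 at 9.70, 9.73 and 10.13. IL15 was also detected, highest on control A. The 28 undetected cytokines included IL2, IL5, IL6, IL13, IL17A, IL21, IFNG, TGFB1 and CXCL8.

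Of 42 chemokines 4 were detected (9.5%), and those were CCL5, CXCL16, CXCL3 and CCL3L3. CCL5, which attracts T cells and monocytes, had 13.20, 12.77 and 12.83, and CXCL16 had 11.37, 10.63 and 10.96. TNF ligands gave 7 of 16 (43.75%), near the 39.3% of all genes. They were CD70, LTA, the TRAIL gene TNFSF10 (10.64, 9.77 and 9.72), the B cell survival factor TNFSF13B, TNFSF14, TNFSF12 and TNF. LTB, FASLG, TNFSF4 and TNFSF8, the ligand of CD30, were detected on none. CD70 was thus detected without its receptor CD27, and TNFRSF8 without its ligand, while LTA and TNFSF14 were detected together with a receptor of each, TNFRSF1B and TNFRSF14.

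**Figure D3:**
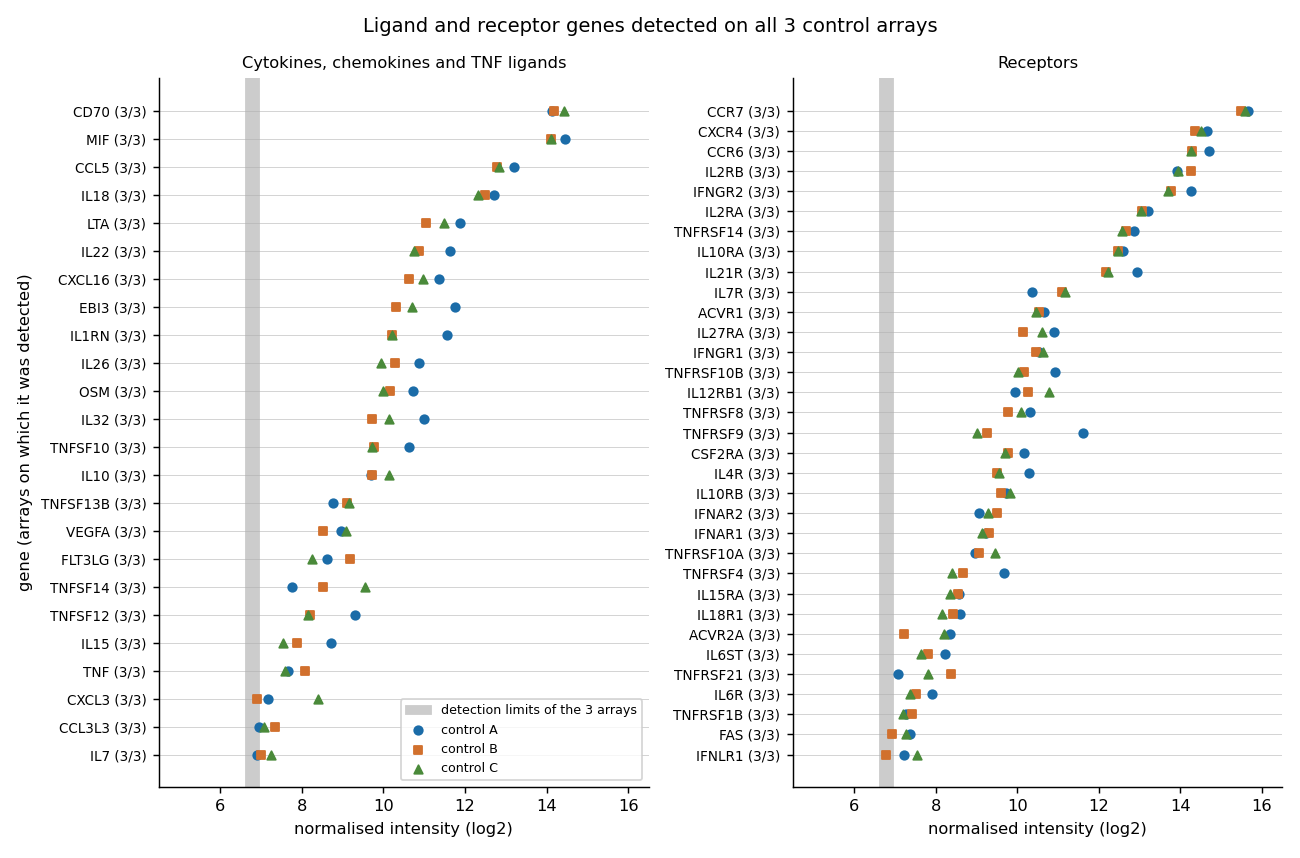
Log2 intensity of the ligand genes (left) and receptor genes (right) detected on all 3 control arrays; each symbol is 1 array and the grey band spans the detection limits. Control A (circles) lies to the right for most ligands and for TNFRSF9 and TNFRSF4, and to the left for IL7R and TNFSF14.

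Signalling genes were detected for 120 of 204 members (58.8%), against 39.3% of all genes. All 9 measured JAK kinase and STAT genes were detected on at least 1 array and 7 on all 3. The kinase TYK2 had 13.66, 13.51 and 13.60 and JAK1 had 11.16, 11.19 and 11.04. JAK2 passed on 2 arrays (6.83, 7.34 and 6.41) and JAK3, the kinase bound to the shared gamma chain, on 1 (7.27, 6.32 and 6.76). STAT5A had 13.06, 12.39 and 12.37, STAT3 had 12.89, 12.49 and 12.35, and STAT5B, STAT6 and STAT4 were also detected.

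The feedback and target genes of this pathway were detected for 15 of 17 members (88.2%). The kinases PIM1 (13.70, 13.28 and 13.33) and PIM2 (13.55, 13.11 and 13.43) and the phosphatase PTPN1 (13.03 ± 0.31, SD, n = 3) were the brightest after MYC. SOCS1, an inhibitor of JAK kinases, had 12.76, 12.13 and 12.32, and SOCS2 had 11.73, 11.70 and 11.33. SOCS3 had 9.72 on control A against 7.14 and 7.87 on controls B and C, and its second probe was detected on 1 array. CISH, an inhibitor of STAT5 signalling, had 11.14, 10.85 and 10.66. PIM3 and the phosphatase gene PTPN6 were detected on none.

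The sequence upstream of CISH is shown because its window held 4 matches to the STAT site TTCNNNGAA, a number that 2 of the 11041 measured genes with a single listed promoter reached. It is chr3:50611775-50612024 of GRCh38.p14 on the minus strand, as listed by RefSeq, and the capitals mark the 4 matches.
CISH: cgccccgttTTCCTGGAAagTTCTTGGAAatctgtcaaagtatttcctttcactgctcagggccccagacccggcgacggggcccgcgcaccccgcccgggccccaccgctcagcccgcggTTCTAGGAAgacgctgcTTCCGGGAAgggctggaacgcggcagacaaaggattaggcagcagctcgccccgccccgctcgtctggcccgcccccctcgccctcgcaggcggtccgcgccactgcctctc
The matches begin at positions -241, -230, -129 and -112 relative to the start site. This palindromic site occurred at least once in 8.2% of all 22114 windows, in 6.4% of the windows of expressed genes and in 8.5% of those of genes detected on none.

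NF-kB subunits and regulators were detected for 22 of 24 members (91.7%). NFKBIA, the inhibitor that holds NF-kB in the cytoplasm and is itself an NF-kB target, had 15.34, 14.58 and 14.69 and ranked 151. NFKB1, which encodes p105 and p50, had 13.94, 13.59 and 13.81. The inhibitor TNFAIP3, also called A20, had 12.06 on control A against 10.79 and 10.75 on controls B and C. BCL3, TNIP1, IKBKG, NFKBIZ and CYLD came next in brightness. The subunits RELA, RELB and NFKB2 were detected, and so was MAP3K14, the kinase of the non-canonical route. REL passed on control A only, and TAB2 on none.

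The sequence upstream of NFKBIA is shown because it carries 1 match to the NF-kB consensus, which begins at position -81 relative to the start site. It is chr14:35404750-35404999 of GRCh38.p14 on the minus strand, as listed by RefSeq, and the capitals mark that match.
NFKBIA: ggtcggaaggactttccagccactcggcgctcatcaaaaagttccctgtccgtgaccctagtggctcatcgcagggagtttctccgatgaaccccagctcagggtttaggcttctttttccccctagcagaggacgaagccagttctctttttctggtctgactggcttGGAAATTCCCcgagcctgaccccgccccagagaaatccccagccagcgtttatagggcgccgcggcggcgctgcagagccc
The consensus occurred in 12.4% of the windows of expressed genes and in 11.4% of those of genes detected on none.

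The list of NF-kB target genes was detected for 11 of 23 members (47.8%), not far from the 39.3% of all genes. It held CCR7, CCL5, LTA, BCL2L1, CD83, IER3, TNFAIP8, SOD2, BIRC2, TNF and the caspase-8 inhibitor CFLAR (11.59, 10.44 and 9.87). Undetected members were CD40, ICAM1, LTB, BCL2A1, PLEK, TNFAIP2, IL6 and the chemokines CCL17, CCL22, CXCL8 and CXCL10. IRF4, an NF-kB target too, passed on 2 arrays as given above.

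AP-1 and CREB family factors were detected for 13 of 19 members. JUND had 15.36, 15.41 and 15.51, and BATF3 and JUNB are described above. BATF had 13.11, 12.48 and 12.51, JUN had 12.18, 12.07 and 12.04, and the stress factor ATF3 had 12.49, 11.69 and 11.74. FOS, FOSL2, BATF2, MAFF and CREM were detected on none, and FOSB on 1 or 2 arrays. Interferon regulatory factors gave 7 of 8, all but IRF4, with IRF5 at 13.28, 13.48 and 13.45 and IRF7 at 11.91, 11.28 and 11.33. No Toll-like receptor of 10 was detected on all 3 arrays.

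The proximal signalling genes of the T cell receptor were detected for 9 of 25 members (36.0%), near the 39.3% of all genes. The kinases LCK, FYN, ZAP70, SYK, TXK and TEC were detected on none. CSK, which holds SRC family kinases inactive, had 12.67, 12.47 and 12.46. The kinase PRKCQ, which acts below the T cell receptor, had 10.34, 10.84 and 10.53, and the adaptor LAT had 10.10, 9.75 and 10.18. SKAP1, NFATC3, VAV1, SH2D1A, LCP2 and PTPN22 were the other detected members.

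The RAS-RAF-MAPK cascade gave 15 of 21 detected members and the PI3K-AKT-mTOR pathway 16 of 22. The phosphatases DUSP5 and DUSP1, which switch off MAP kinases, the kinases MAP2K2 and MAPK3, and RRAS, MAPK9, SPRY1 and ARAF were the brightest of the cascade. The feedback genes DUSP4, DUSP6, SPRY2 and SPRED1 were detected on none. AKT1, DDIT4, MTOR, FOXO3 and RHEB were the brightest of the PI3K pathway, which includes the leukocyte catalytic subunit PIK3CD. In the Notch pathway 7 of 19 genes were detected (36.8%), near the 39.3% of all genes. Among them were the receptor NOTCH1 (10.79, 10.81 and 11.06), its nuclear partner RBPJ and the proteases ADAM10 and ADAM17. The ligand genes DLL1, DLL3, DLL4, JAG1 and JAG2 were detected on none. Of 15 histone deacetylase genes 5 were detected (33.3%, against 39.3% of all genes): HDAC1 (13.83, 14.17 and 14.07), HDAC3 (11.22, 11.80 and 11.58), HDAC2 (9.42, 9.79 and 9.30), HDAC6 and HDAC10.

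Survival and cell cycle genes were detected for 51 of 75 members (68.0%). Among 16 BCL2 family genes 5 were detected (31.25%), against 39.3% of all genes. Of these, BCL2L1 (12.58, 11.75 and 12.10), BCL2 (10.81, 10.93 and 10.88) and MCL1 (9.79, 9.96 and 9.75) protect cells, and BAX (13.49, 13.57 and 13.60) and BAD promote death. BAK1, BCL2L11, BBC3, BIK, HRK and BCL2A1 were detected on none. Death receptor and caspase genes were detected for 19 of 24, among them CASP2, DIABLO, RIPK2, FADD, CFLAR and TNFRSF10B. FASLG and XIAP were detected on none, and CASP8, CASP10 and TNFRSF1A on 1 or 2 arrays.

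Cyclins and their kinases were detected for 18 of 21 members. The D cyclins CCND2 (15.33, 15.28 and 15.29) and CCND3 (13.67, 13.36 and 13.44) were detected, and CCND1 was detected on none. Among the inhibitors, CDKN1A, which encodes p21, had 14.01, 13.51 and 13.49, and CDKN2D, CDKN1B, RBL1, RBL2 and RB1 were detected too. CDKN2A, CDKN2B, CDKN1C and TP73 were detected on none, and so was MTAP, the neighbour of CDKN2A on chromosome 9. Of the 12 measured genes nearest to CDKN2A in the RefSeq order, 10 were detected on none, against 45.9% of all measured genes. The 10 include MTAP and CDKN2B, already given as undetected, and the stretch was centred on CDKN2A because it was undetected. They also include CDKN2B-AS1 and LINC03106, long non-coding RNA genes, a kind with 83.3% detected on none. The share of all measured genes is therefore no fair base for this stretch. Why these 10 were undetected was not tested. IFNA13 passed on 1 array, and IFNA8, named after its values were seen, passed on all 3 at 7.84, 7.51 and 7.97.

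Antigen presentation genes had the highest detected share among the 7 topics, 27 of 32 (84.4%). For class I, which displays peptides from inside the cell, 15 of 16 were detected. HLA-B had 14.55, 14.46 and 14.54, B2M, the shared light chain, had 13.63, 13.91 and 13.53, and the peptide transporter TAP1 had 14.44, 13.89 and 13.89. The immunoproteasome genes PSMB8, PSMB9 and PSMB10 were detected as well. HLA-C passed on 1 of its 2 probes, and the other probe was detected on none.

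For class II, which displays peptides to helper T cells, 12 of 16 were detected. HLA-DRA had 15.33, 15.59 and 15.62, HLA-DPA1 had 14.21, 14.51 and 14.60, and the invariant chain CD74 had 14.42, 14.25 and 14.41. The loading factors HLA-DMA and HLA-DMB and the promoter factors RFX5, RFXANK and RFXAP were detected. CIITA, the master activator of class II genes, passed on control B only (6.41, 7.67 and 6.51). HLA-DRB1 and HLA-DRB5 were detected on none, and HLA-DRB1 was read from 1 probe (5.77, 5.46 and 5.89). The DR alpha chain gene was thus detected without a detected probe for these beta chains, which does not show that they were absent.

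Metabolic genes were detected for 154 of 214 members (72.0%). Glycolysis had 19 of 24 genes detected, with a median level of 13.52 over those 19, against 10.00 over all expressed genes. GAPDH had 15.92, 15.93 and 16.03, ENO1 had 15.91, 15.96 and 15.75, and LDHA, which makes lactate, had 15.16, 15.37 and 15.33. HK1, the first enzyme of the path, had 14.32, 14.03 and 14.25. Of 9 glucose and lactate transporters 3 were detected (33.3%), against 39.3% of all genes. Among the glucose transporters SLC2A3 had 14.20, 13.92 and 14.09 and SLC2A1 had 12.39, 12.20 and 12.38. HK3, PGAM2 and LDHC were detected on none. Hypoxia-inducible genes outside glycolysis were detected for 8 of 18 (44.4%), near the 39.3% of all genes. ANKRD37 had 13.09, 12.98 and 13.16, and BNIP3, ADM, EGLN3, LOX and KDM3A were detected on none.

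Mitochondrial energy genes were detected alongside. The citric acid cycle and pyruvate entry gave 24 of 28, with MDH2 at 15.71, 15.64 and 15.64 and citrate synthase (CS) at 14.08, 14.12 and 14.01. All 16 ATP synthase genes, 27 of 32 complex I genes and 10 of 16 cytochrome c oxidase genes were detected. The median levels of those detected were 14.158, 13.565 and 14.591, against 13.522 for glycolysis. The 24 detected genes of the citric acid cycle and pyruvate entry had a median of 10.805. Glycolysis was thus brighter than that list, but not brighter than the ATP synthase, complex I and cytochrome c oxidase genes. The 6 undetected oxidase genes were COX4I2, COX6A2, COX6B2, COX7A1, COX7B2 and COX8C, which are known as forms of muscle, lung or testis.

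All 8 pentose phosphate genes were detected, with the transaldolase gene TALDO1 at 14.26, 14.40 and 14.46. Nucleotide synthesis gave 20 of 22, among them IMPDH2 (14.17, 14.18 and 13.94), the first enzyme towards guanine nucleotides. Serine and one-carbon metabolism gave 14 of 19, with MAT2A at 14.59, 14.99 and 14.76 and the mitochondrial enzyme SHMT2 at 14.69, 14.23 and 14.40. PHGDH, the first enzyme of serine synthesis, was detected on none, although PSAT1 (12.99, 12.69 and 12.58) and PSPH, the steps after it, were detected. PHGDH was read from 1 probe.

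Amino acid handling showed a bright transporter and synthetase. SLC7A5, the carrier of large neutral amino acids, had 15.27, 15.08 and 15.16, and its partner chain SLC3A2 was also detected among 7 of 17 transporters. ASNS, which makes asparagine, had 14.67, 14.28 and 14.07, while ASS1, ARG1 and GPT were detected on none. Polyamine and methionine salvage genes gave 11 of 14. OAZ1, the antizyme that limits polyamines, had 16.05, 16.06 and 16.06 and was among the 10 brightest genes, and the synthesising enzyme ODC1 had 13.61, 14.24 and 14.24. MTAP, which salvages methionine from polyamine synthesis, was undetected as given above.

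Lipid synthesis was detected in part, with 15 of 21 sterol genes and 14 of 21 fatty acid genes. FASN had 13.58, 13.71 and 13.73, SCD had 12.46, 12.38 and 12.29, and the sterol sensor partner INSIG1 had 12.95, 12.59 and 13.10. IDI1, CYP51A1 and SREBF2 were detected on none, as were the cholesterol exporters ABCA1 and ABCG1.

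The brightest genes belonged mainly to translation and the cytoskeleton. Of the top 25 genes RPS29, RPS25, RPS3, RPL12, RPL38, RPS27, RPL27, RPL6, RPS10, RPL41, RPS12 and RPL35A encode ribosomal proteins. The others included ACTG1, ACTB, EEF1A1, FTL, UBB, PFN1, TPT1 and GAPDH. The first 10 of the ranking lay between 16.04 and 16.06. Their SDs ran from 0.006 for OAZ1 to 0.036 for EEF1A1, of a similar size as that range, so their order cannot be told apart. The highest raw intensities on controls A, B and C were 69488.4, 70608.4 and 69616. Whether the brightest probes were saturated was not tested. Outside ribosomal, proteasome, respiratory chain and histone genes, the next 25 included LGALS1, F2R, TMSB4X, HINT1, the DNA replication factor PCLAF (15.44, 15.60 and 15.77) and CCR7. Cytosolic ribosomal proteins were detected for 72 of 78 genes, mitochondrial ribosomal proteins for 69 of 76 and proteasome subunits for 32 of 35. Protein-coding genes were detected for 7249 of 17335 members (41.8%), long non-coding RNA genes for 52 of 1059 (4.9%).

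HOX genes, which mark position along the body axis and are retained in many blood cancers, were detected by cluster. The HOXB cluster gave 6 of 10 genes: HOXB7 (11.60, 11.58 and 11.81), HOXB8 (10.75, 10.84 and 10.37), HOXB2 (9.85, 9.59 and 9.78), HOXB9, HOXB4 and HOXB6. The HOXC cluster gave 0 of 9 and the HOXD cluster 2 of 9, HOXD13 and HOXD12. The single measured HOXA gene, HOXA2, was detected on none.

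The arrays did not spread alike. Over the 7412 expressed genes Pearson's r was 0.980 between controls A and B, 0.980 between A and C and 0.986 between B and C, across genes, which are not independent replicates. Among the 15 genes with the largest SD, TNFRSF9, SOCS3, BCL6, GZMB and TUBA4A were highest on control A. SNORA33 (7.24, 9.66 and 8.97), SNORA64, SNORA62, SNORA7B, the telomerase RNA gene TERC (9.01, 10.99 and 10.64), the cell cycle kinase WEE1 (7.48, 9.32 and 9.14) and the cold-induced RBM3 were lowest on it. In all, 463 expressed genes (6.2%) had an SD above 0.5.

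Control A was the highest array for 35.5% of all expressed genes and the lowest for 38.2%. Control B was the highest for 30.2% and the lowest for 32.7%, and control C the highest for 34.3% and the lowest for 29.1%. Over all expressed genes the median excess of control A over the mean of controls B and C was -0.01. Of the 13 detected cytokines 9 were highest on control A, with a median excess of 0.65. The same held for 11 of 15 JAK-STAT feedback and target genes (median 0.39), 14 of 22 NF-kB subunits and regulators (median 0.33), 8 of 11 NF-kB target genes (median 0.40) and 10 of 14 interleukin receptors (median 0.23). With each array scaled by its median instead of quantile normalisation, 24.9% of all expressed genes were highest on control A, and the counts became 6 of 14 for interleukin receptors and 6 of 11 for NF-kB target genes. In the opposite direction, 19 of 25 detected small nucleolar RNA genes were lowest on control A (median -0.53), and so were 13 of 20 nucleotide synthesis genes (median -0.19). These lists were examined after control A had been seen to stand apart, several genes are in more than 1 of them, and the cause was not tested.

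**Figure D4:**
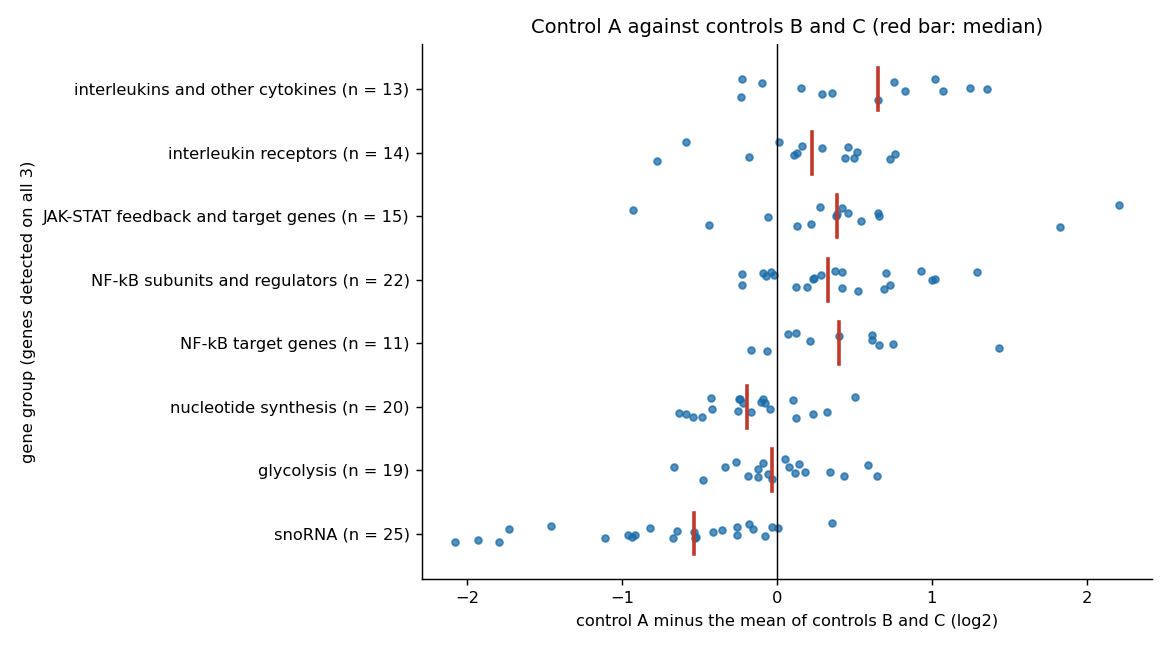
Log2 intensity on control A minus the mean of controls B and C for the detected genes of 8 groups; each point is 1 gene and the red bar is the group's median. Cytokines, JAK-STAT feedback genes and NF-kB genes lie mostly to the right of 0, small nucleolar RNA genes mostly to the left.

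The sequence around the start sites, which the detection rule did not use, was set beside detection. RefSeq lists exactly 1 promoter window for 11041 of the measured genes (58.6%). The window runs from 250 bases before to 50 after the start, and the others of the measured genes were not used here. The ratio of observed to expected CpG had a median of 0.88 in 4387 windows of expressed genes, against 0.52 in 5129 windows of genes detected on none. It exceeded 0.6 in 89.97% of the windows of expressed genes and in 45.9% of those of undetected genes. The median GC content was 65.7% in the windows of expressed genes and 59.0% in those of undetected genes. The difference is a description over genes, which are not replicates, and carries no test.

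Within the expressed genes the share above 0.6 was 83.9% in 1065 windows of the dimmest genes and 92.4% in 1124 windows of the brightest, each taken from 1853 genes. The ratio was 0.92 for CISH, 0.78 for NFKBIA and 0.32 for IL2RA, over the whole window of 300 bases, of which the 250 upstream bases are printed above. The GC box GGGCGG was found on either strand in 73.3% of the windows of expressed genes and in 45.6% of those of undetected genes. The TATA box TATAAA was found in 4.9% of the windows of expressed genes and in 14.8% of those of undetected genes, and the AP-1 site TGANTCA in 3.7% of the windows of expressed genes and in 8.3% of those of undetected genes. Over all 22114 windows these motifs occurred in 43.0%, 12.7% and 8.1%. Of the expressed interleukin, chemokine and TNF ligand genes, 5 had a single listed window, and 4 of those 5 windows held TATAAA.

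**Figure D5:**
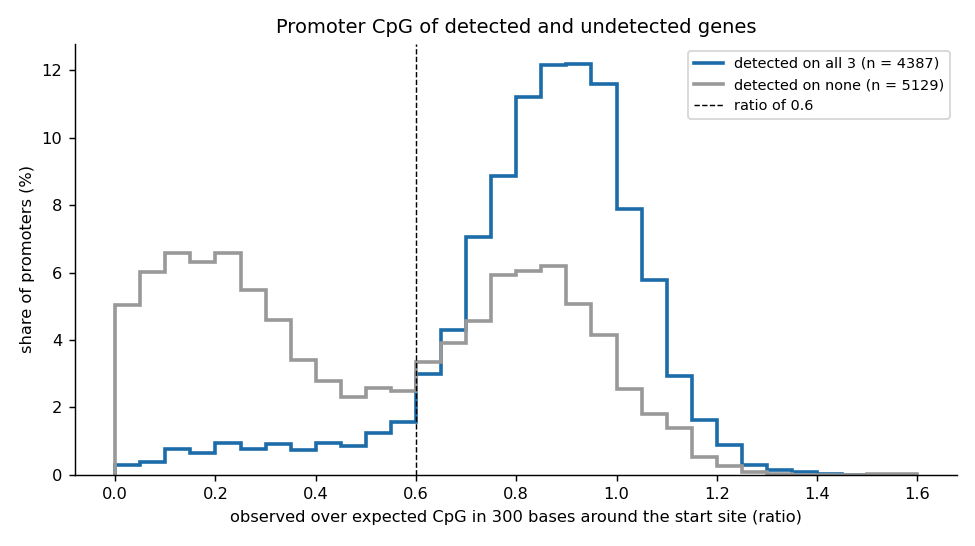
Share of promoter windows (percent) in steps of the observed over expected CpG ratio, for 4387 genes detected on all 3 control arrays (blue) and 5129 genes detected on none (grey); the dashed line marks a ratio of 0.6. The expressed genes form 1 peak near 0.9, while the undetected genes have a second peak at low ratios.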

How the data were processed

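Only the 3 control arrays of the 12 were described. Per the labels' protocols, Trizol-extracted total RNA was cleaned on a column, treated with DNase and turned into biotin-labelled cRNA. BeadStudio is named, without a version, in the submitters' processing notes. The deposited table holds the authors' average bead intensity per probe on the linear scale, not normalised between arrays. The deposited detection column is a fraction that the header calls a p-value; it rose with intensity (rank correlation at least 0.9958 on every array) and was read as a score, 1 minus p. The deposited series matrix holds the authors' processed signal as linear intensity, and its columns differ by at most 0.2754% at equal rank.

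Intensities were background corrected and quantile normalised with neqc (limma 3.58.1, R 4.3.3, offset 16) and given as log2 values; the deposited files hold no log2 values. The step was tested on simulated data. Of 48803 probes 28098 had 1 gene symbol in the platform annotation, which can be old, 13 had several and 20692 had none listed. The Entrez identifiers of 28059 matched RefSeq and 0 symbols changed. Unnamed probes and those with several symbols were not used, of which 1482 (7.16%) were detected on all 3 arrays. A gene is represented by its probe detected on most arrays, the brightest where tied. Of 6132 genes with several probes 2936 were detected on all 3 arrays, and 1502 of these (51.2%) had another probe detected on none. At the threshold, 33 genes whose lowest score exceeded it by at most 0.005 had a median level of 7.24, and 56 genes left out by 1 array within 0.005 below it had a median of 7.13.

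The 48 gene lists (826 measured genes) and 25 families were chosen with earlier results of these data known. Values are given for the 5 markers, for up to 8 of the brightest detected members of a list and 6 of a family, for the 25 brightest genes and the next 25 outside the abundant families, and for the 15 with the largest SD. Others given with values, such as genes detected on 1 or 2 arrays, were named for that state. The printed promoters were chosen after their matches were seen. With 1 group of 3 arrays there is no comparison between conditions and no p-value, and the number of arrays limits the precision. Alternatives were a score above 0.99, the brightest probe, other background corrections and scalings, normalisation over all 12 arrays, the series matrix, and leaving out each array.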

Additional observations from a re-analysis of the deposited data

How the results depend on the processing

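The count of genes detected on all 3 arrays was 7412, with 6724 at a score above 0.99, 7406 with the brightest probe, and 7616 to 7957 with 1 array left out. Genes detected on none numbered 8655, with 10619, 8706 and 9069 to 9593 under the same alternatives, and list members detected on all 3 numbered 439, with 411, 439 and 450 to 461. At a score above 0.99 the detected counts became 1 for epithelial genes, 0 for keratin-associated proteins, 1 for keratins, 0 for defensins, 2 for chemokines and 3 for potassium channels, while the 67 other lists and families stayed within 1.5 times. Without control C the keratins numbered 5 and the potassium channels 10; the other moves with 1 array left out are given with their counts. The median level of the 495 named genes was 10.98. It moved to 11.29 without background correction and to 11.25 in the series matrix, with the order of the genes kept (rank correlation 1.00). By gene, 298 of the 495 levels moved by more than their SD over the arrays without background correction, 273 in the series matrix, 156 with normexp from the intensities alone, 21 with normalisation over all 12 arrays and 0 with array median scaling. The median lay at 10.92 to 11.02 with 1 array left out. The median SD was 0.188. It moved to 0.115 without background correction, to 0.114 in the series matrix and to 0.288 with array median scaling, and the cause of these moves was not tested. With 1 array left out it lay at 0.126 to 0.163. Each of those SDs is taken over 2 arrays, so they do not compare directly with 0.188. No paired analysis was possible because only 1 group was described. Genes dimmer than about the detection limit can be missed, an undetected probe does not show that a transcript is absent, and a second probe of a detected gene was often silent.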

Other observations

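Potassium channel genes were detected for 6 of 76 members, and KCNH6, a voltage-gated channel, was the brightest of them at 12.10, 12.12 and 12.20 on controls A, B and C. Histone genes were detected for 28 of 76 members (36.8%), near the 39.3% of all genes. Of those 28, 20 were highest on control A, against 35.5% of all expressed genes. Solute carriers were detected for 143 of 374 members (38.2%), close to the share of all genes, and ZNF zinc finger genes for 134 of 456 (29.4%).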
